A study of Homo sapiens with 24 samples.

Results

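The genes described here serve antigen presentation, the display of peptides on the cell surface to T cells, and were followed through the binding sites of 3 subunits of the SWI/SNF chromatin remodelling complex in human prostate epithelial cells. The members are 9 genes, 7 of the class I route (HLA-B, HLA-C, HLA-E, HLA-F, B2M, TAP1 and TAPBP) and 2 of the class II route (CIITA and HLA-DRA). A peak counted for a gene when the deposited annotation gives that gene as its nearest transcription start site (TSS), and such a peak is said to be named for the gene. Of 80150 peaks in 3 lists, 19 were named for members, made up of 11 of 51504 BRG1 peaks, 6 of 22157 BRM peaks and 2 of 6489 SNF5 peaks. At least 1 of these peaks was named for 7 of the 9 members, and none for HLA-B or HLA-DRA.

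The study concerns SWI/SNF occupancy of chromatin in cells with the long noncoding RNA SCHLAP1. The peak lists come from chromatin immunoprecipitation with sequencing in RWPE1 cells, a non-tumour epithelial line from the human prostate, infected with a lentivirus that carries SCHLAP1 and selected in 2.5 ug/mL blasticidin. The labels give 2 samples each for BRG1, BRM and SNF5, all on chromatin cut with MNase, and 1 list was deposited for each subunit. LACZ cells, the control line of the study, have histone mark and input samples here and none for a subunit, so the values below describe SCHLAP1 cells and compare genes, not conditions. The lists hold positions, widths and annotations without scores or read counts, so their depth is unknown. There is no spread between replicates, and no comparison below could be tested over samples. Where a gene has no peak, none was called there, and absence of the protein is not shown.

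BRG1 and BRM are the alternative ATPase motors of SWI/SNF, and SNF5 is a core subunit. Class I molecules pair an HLA heavy chain with the light chain beta-2-microglobulin (B2M) and are made by nearly all nucleated cells. Their peptides are cut by the proteasome, pumped into the endoplasmic reticulum by the transporter TAP and loaded with the help of tapasin (TAPBP). Class II molecules, such as the HLA-DR dimer to which HLA-DRA gives the alpha chain, are made mainly by professional antigen-presenting cells, and their transcription depends on the coactivator CIITA. Interferon raises both routes, in part through interferon regulatory factors that bind the interferon-stimulated response element (ISRE).

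The promoters of 5 genes are printed, because the results turn on which of them lay under a peak. They are the similar pair HLA-C, which had peaks, and HLA-B, which had none, and the 3 promoters that lay under the widest peaks among the members. Each window runs from 250 bases before to 50 bases after the RefSeq start of the gene (GRCh38.p14), 5′ to 3′ in the direction of transcription, and was found in the RefSeq table for 6 of the 9 members, all but HLA-E, CIITA and HLA-DRA. Capitals mark the ISRE letters, which are GAAA, any 2 bases and GAAA again, and ATTGG, the inverted CCAAT box that forms the Y box of HLA promoters, each on either strand. Matches can overlap each other, as the ISRE pairs of B2M, TAP1 and TAPBP do. A site that departs from these letters is not marked.
HLA-C: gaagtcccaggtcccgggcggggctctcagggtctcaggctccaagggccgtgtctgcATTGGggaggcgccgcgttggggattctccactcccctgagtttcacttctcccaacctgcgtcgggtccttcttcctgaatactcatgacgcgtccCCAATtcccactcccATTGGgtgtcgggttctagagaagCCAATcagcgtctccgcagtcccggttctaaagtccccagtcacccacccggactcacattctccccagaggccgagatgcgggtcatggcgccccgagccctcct
HLA-B: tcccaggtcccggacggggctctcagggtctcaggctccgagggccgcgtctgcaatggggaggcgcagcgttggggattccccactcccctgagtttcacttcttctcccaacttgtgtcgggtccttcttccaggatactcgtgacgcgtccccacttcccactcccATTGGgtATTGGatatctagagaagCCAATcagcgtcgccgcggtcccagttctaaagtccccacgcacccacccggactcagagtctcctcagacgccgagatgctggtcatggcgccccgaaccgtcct
B2M: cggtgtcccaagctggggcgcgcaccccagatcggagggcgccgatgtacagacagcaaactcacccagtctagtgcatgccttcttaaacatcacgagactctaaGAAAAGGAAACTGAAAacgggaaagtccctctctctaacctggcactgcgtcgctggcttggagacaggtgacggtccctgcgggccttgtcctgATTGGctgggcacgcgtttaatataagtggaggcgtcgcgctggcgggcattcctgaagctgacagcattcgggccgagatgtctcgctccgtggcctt
TAP1: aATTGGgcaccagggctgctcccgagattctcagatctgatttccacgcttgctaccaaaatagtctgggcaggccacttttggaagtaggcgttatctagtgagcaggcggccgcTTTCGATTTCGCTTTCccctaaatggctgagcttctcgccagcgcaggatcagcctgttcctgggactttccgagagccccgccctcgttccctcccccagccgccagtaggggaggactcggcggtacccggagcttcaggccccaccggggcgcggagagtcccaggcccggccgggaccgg
TAPBP: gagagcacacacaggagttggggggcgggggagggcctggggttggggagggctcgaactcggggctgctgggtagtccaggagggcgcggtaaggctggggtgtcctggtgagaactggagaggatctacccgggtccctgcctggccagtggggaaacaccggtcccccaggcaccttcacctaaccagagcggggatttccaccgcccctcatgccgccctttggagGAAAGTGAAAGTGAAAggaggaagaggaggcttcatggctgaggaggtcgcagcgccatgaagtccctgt
The windows lie on chr6:31272043-31272342 (HLA-C, minus strand), chr6:31357130-31357429 (HLA-B, minus), chr15:44711267-44711566 (B2M, plus), chr6:32853655-32853954 (TAP1, minus) and chr6:33314029-33314328 (TAPBP, minus).

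Among the heavy chain genes, HLA-F, HLA-E and HLA-C each had a BRG1 and a BRM peak over the gene start, and HLA-B had no peak in any list. HLA-F, a nonclassical heavy chain, had a BRG1 peak of 1098 bp (chr6:29723080-29724177) and a BRM peak of 677 bp inside it (29723411 to 29724087). HLA-E, which presents leader peptides of other HLA chains to natural killer cell receptors, had a BRG1 peak of 691 bp (chr6:30489482-30490172), a BRM peak of 716 bp (30489455 to 30490170) and an SNF5 peak of 180 bp (30489571 to 30489750). It was thus the one member whose promoter was annotated with a peak of all 3 subunits. A second BRG1 peak of HLA-E, 402 bp wide and annotated as distal, lay 6927 bp from the TSS and met neither other list.

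HLA-C, a classical heavy chain, had a BRG1 peak of 825 bp (chr6:31271286-31272110) and a BRM peak of 343 bp (31271776 to 31272118). At HLA-C and HLA-E the peaks lay almost wholly inside the gene. The BRG1 peaks began 18 bp before the start of HLA-C and 27 bp before that of HLA-E and ran 806 and 663 bp into the gene, and the BRM peaks began 26 and 54 bp before the start. At HLA-F the BRG1 peak began further out, 354 bp before the start, and the BRM peak 23 bp before it. In the printed HLA-C window, 68 of 300 bases were under the BRG1 peak and 76 under the BRM peak, so none of its marked letters lay under either.

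HLA-B, the remaining classical heavy chain among the members, lay in a stretch of 127.6 kb without a BRG1 peak, bounded by the HLA-C peak on one side and a peak named for the noncoding gene HCP5 on the other. No other protein-coding gene lay wholly inside this stretch, which was wider than 91.7% of the gaps between BRG1 peaks. The gaps around HLA-B in the BRM and SNF5 lists were wider than 82.1% and 85.9% of the gaps there. A gene falls more readily in a wide gap than in a narrow one, so such ranks overstate how unusual a stretch is. The nearest BRG1 peak was 42.6 kb from the gene, the nearest BRM peak 42.4 kb and the nearest SNF5 peak 185.1 kb. The promoter windows of HLA-B and HLA-C were 88.5% identical (269 of 304 aligned positions), and those of HLA-B and HLA-F 79.7% identical. How reads that match several HLA genes were placed is not given in the sources used here, so a missing or present peak at one HLA gene is uncertain. No list holds a peak on an alternative haplotype contig.

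The light chain and the loading genes had the widest member peaks. B2M had a BRG1 peak of 2002 bp (chr15:44710984-44712985), wider than 94.3% of all BRG1 peaks and 89.3% of those annotated as promoter. Its BRM peak was 1552 bp wide (44711438 to 44712989), with 99.7% of its length inside the BRG1 peak. The BRG1 peak covered all 300 bases of the printed window, while the BRM peak began 79 bp before the start and left out both ISRE matches, which lie 144 to 129 bases before it. No SNF5 peak was named for B2M, and the nearest lay 47.9 kb away at SPG11.

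TAP1, one of the chains of the peptide transporter, had the widest member peak, a BRG1 peak of 2237 bp (chr6:32852370-32854606) that exceeded 96.1% of all BRG1 peaks in width. Its BRM peak of 1059 bp (32853367 to 32854425) lay wholly inside it. Both ran over the start of TAP1 and on over the start of PSMB9 (32854192), an immunoproteasome gene transcribed the other way, and both covered the TAP1 window with its pair of ISRE matches. The SNF5 peak of TAP1 was 151 bp wide, the narrowest width in its list, and met the BRG1 peak but not the BRM peak. It was annotated as intron and lay 765 to 915 bp inside the gene, which is 28 to 178 bp before a second RefSeq start of TAP1. TAPBP had BRG1 peaks of 1760 bp (chr6:33313128-33314887) and 460 bp (33314946 to 33315405), and a BRM peak of 1235 bp (33313664 to 33314898) that met the wider one alone. Both TAPBP ISRE matches, 20 to 5 bases before the start, lay under the BRG1 and the BRM peak.

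**Figure D1:**
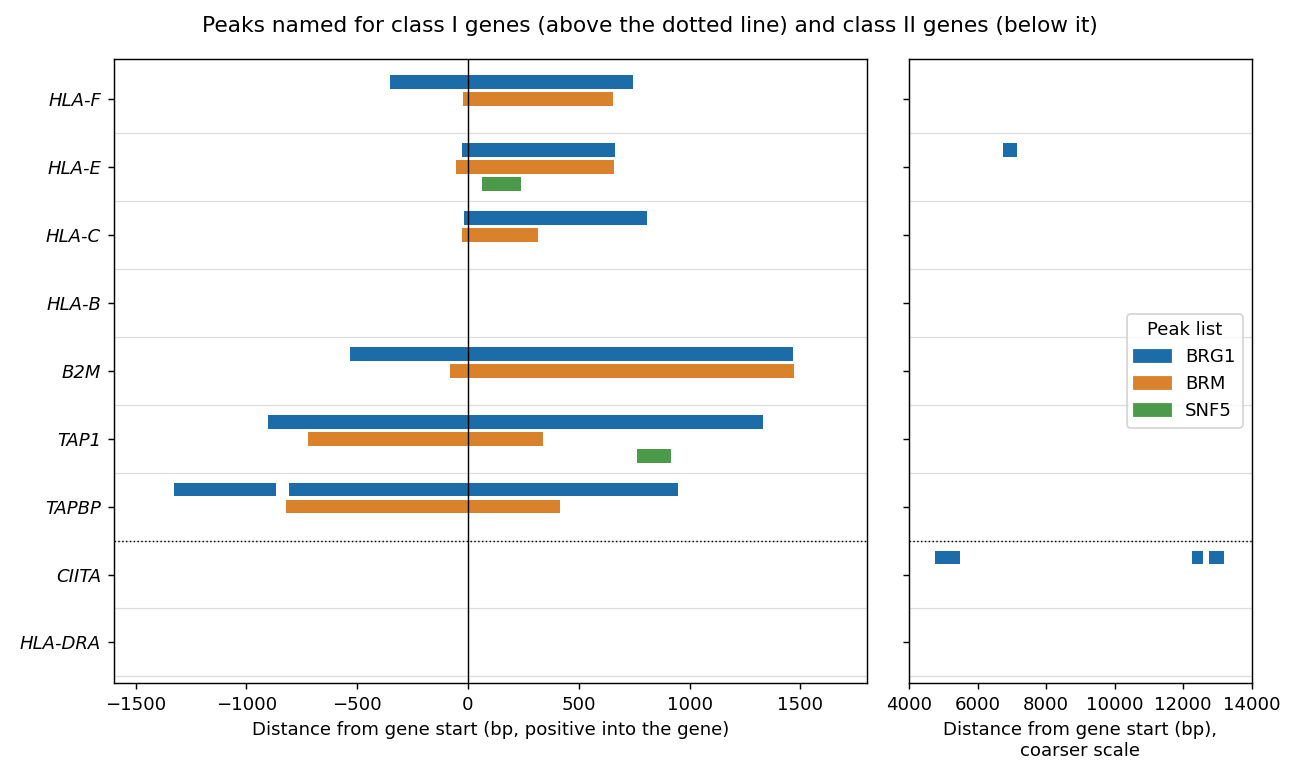
Peaks named for the 9 members, as bars from their first to their last base, against the distance from the RefSeq gene start in bp (left, near the start; right, further into the gene on a coarser scale; for HLA-E and CIITA the lower end of the RefSeq span serves as start). Bars lie over the start of 6 of 7 class I genes and none over the start used for CIITA, whose alternative starts are not drawn. HLA-B and HLA-DRA have no bar.

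Of the class II members, one had peaks of BRG1 alone and the other had no peak. CIITA, the class II coactivator, had 3 BRG1 peaks, of 722 bp (chr16:10870967-10871688, intron), 338 bp (10878451 to 10878788) and 429 bp (10878966 to 10879394), and no peak of BRM or SNF5. None of the 3 covered the start of the RefSeq span of the gene, which is transcribed from several alternative promoters. The 722 bp peak lay 4761 bp into the RefSeq span, and the other two, annotated as promoter, lay 12245 to 13188 bp into it. The 338 bp peak was near the lower limit of its list, whose narrowest peak measured 331 bp. At the far end of the CIITA span lay BRG1 peaks named for DEXI and 1 BRM peak of 459 bp, also named for DEXI (10942057 to 10942515).

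HLA-DRA lay in a stretch of 560.5 kb without a BRG1 peak, wider than 98.5% of the gaps between BRG1 peaks and the 46th of 3235 on chromosome 6. It was 184.0 kb from the nearest BRG1 peak, 184.6 kb from the nearest BRM peak and 243.3 kb from the nearest SNF5 peak. Of the 9 protein-coding genes wholly inside the stretch, 7 encode class II chains, among them HLA-DRB1, HLA-DQA1 and HLA-DQB1. For BRM the stretch measured 582.4 kb and for SNF5 642.1 kb, wider than 95.6% and 86.2% of the gaps in those lists. As for HLA-B, a gene falls more readily in a wide gap, so these ranks overstate how unusual the stretch is. Some class II chain genes, such as HLA-DRB1 and HLA-DRB5, are close paralogs, and how reads shared between them were placed is not given here either.

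Set side by side, BRG1 peaks were named for 6 of 7 class I members and 1 of 2 class II members, BRM peaks for 6 of 7 and 0 of 2, and SNF5 peaks for 2 of 7 and 0 of 2. Over 20052 protein-coding genes, BRG1 named 63.4%, BRM 49.5% and SNF5 19.6%. With 7 and 2 genes, none of these counts, for BRG1, BRM or SNF5, can be told from that background, and the difference between the classes was not tested, since genes are not replicates. All 6 class I members with a BRG1 peak also had a BRM peak, while CIITA was named by BRG1 and not by BRM. Of the 12720 protein-coding genes named by BRG1, 9434 were also named by BRM and 3286 were not, so most were named by both. Taken over all protein-coding genes, and not over those named by BRG1, these are 47.0% and 16.4%. The 8 class I BRG1 peaks included 7 annotated as promoter (87.5%, 95% exact binomial interval 47.3 to 99.7, against 37.3% of all BRG1 peaks), and 6 that met a BRM peak by at least 1 bp (75.0%, 34.9 to 96.8, against 35.7%). Of the 3 class II BRG1 peaks, 2 were annotated as promoter and none met BRM. An SNF5 peak was met by 2 of the 8 class I peaks (25.0%, 3.19 to 65.1, against 9.58% of all BRG1 peaks) and by none of the 3 class II peaks. The BRM and SNF5 overlap shares were not computed for BRG1 promoter peaks alone, so promoter location and class I cannot be told apart here. All 6 class I BRM peaks met a BRG1 peak, as did 92.2% of all BRM peaks, and all 6 were annotated as promoter, as were 62.8%. The HLA-E peak was the 1 of these 6 that met SNF5, against 21.9%. Both SNF5 peaks met BRG1, against 96.1% of all SNF5 peaks, while 1 met BRM, against 91.9%, and 1 was annotated as promoter, against 81.3%. The intervals treat peaks as independent and cover counting error only.

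The class I BRG1 peaks had a median width of 961.5 bp (402 to 2237 bp) and the CIITA peaks one of 429 bp (338 to 722 bp), against 667 bp over all BRG1 peaks and 876 bp over those annotated as promoter. The class I BRM peaks, all annotated as promoter, had a median of 887.5 bp, against 547 bp over all BRM peaks and 638 bp over those annotated as promoter. The 2 SNF5 peaks, of 180 and 151 bp, were both narrower than the median of 212 bp in their list. B2M, TAP1 and TAPBP stood above the 3 heavy chain genes in the widest BRG1 peak and in the BRM peak. Other ways of counting left the BRG1 counts as they were. With promoter peaks alone, 6, 6 and 1 of 7 class I members and 1, 0 and 0 of 2 class II members had a BRG1, BRM and SNF5 peak, against 55.5%, 45.6% and 18.0% of all genes. With peaks at least as wide as the median of their list, the counts were 6, 5 and 0 of 7 and 1, 0 and 0 of 2, against 49.6%, 34.2% and 11.4%. With any peak within 1 kb of the gene span, they were 6, 6 and 2 of 7 and 1, 1 and 0 of 2, against 70.0%, 57.0% and 24.2%, where the class II BRM count comes from the DEXI peak in the CIITA span. Width depends on peak calling and depth and is not a measure of the amount of protein.

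**Figure D2:**
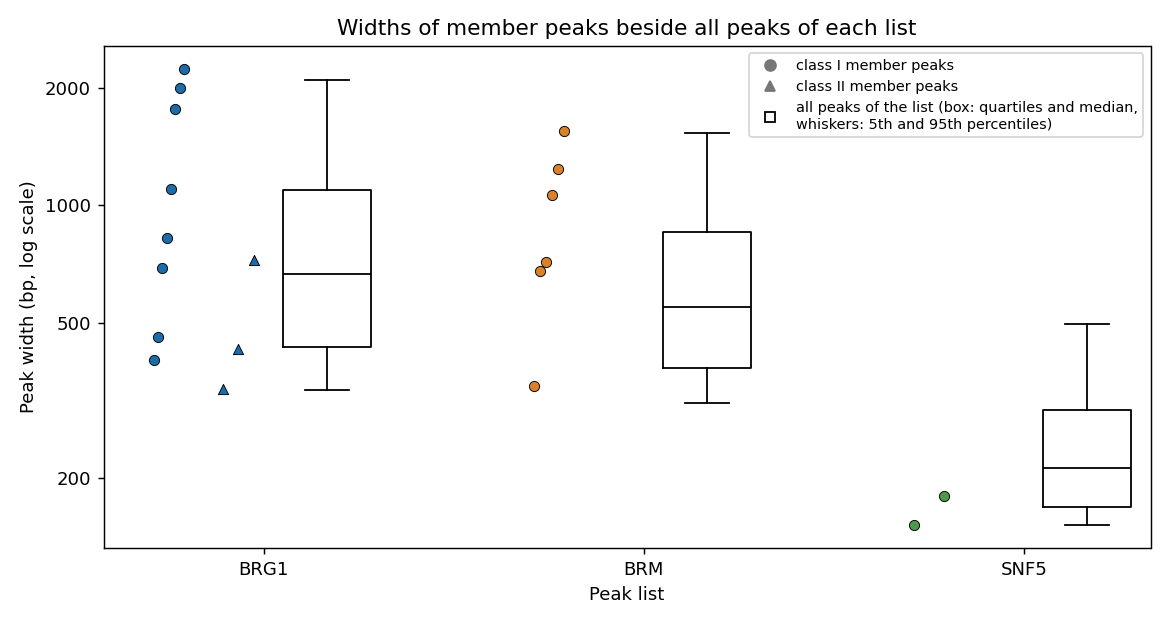
Widths in bp (log scale) of the peaks named for class I members (circles) and class II members (triangles), beside all peaks of the same list (box with quartiles and median, whiskers at the 5th and 95th percentiles). The widest class I BRG1 peaks, up to 2237 bp, lie near or past the upper whisker, and the CIITA peaks of 338 to 722 bp lie in the lower part of the range or near the median.

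The same contrast was described over wider lists of 27 class I and 20 class II genes that include the members. BRG1 peaks were named for 23 of 27 class I genes (85.2%) and 7 of 20 class II genes (35.0%), against the 63.4% of all protein-coding genes. BRM peaks were named for 24 of 27 (88.9%) and 3 of 20 (15.0%), against 49.5%. SNF5 peaks were named for 7 of 27 (25.9%) and 0 of 20, against 19.6%. Of the class I genes with a BRG1 peak, MICB alone had no BRM peak, while CIITA, RFX5, HLA-DOB and CD74 of the class II list had BRG1 without BRM. No set test was made.

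By role, BRG1 and BRM peaks were named for all 7 genes of peptide transport and loading, for both trimming peptidases, all 3 regulators and the light chain gene. CANX, the gene of the chaperone calnexin, had 3 peaks in each list with BRG1 peaks of up to 2534 bp, and TAP2, the partner chain of TAP1, a BRG1 peak of 1525 bp and an SNF5 peak of 151 bp. All 5 proteasome genes had a BRM peak, and 3 a BRG1 peak. PSMB9 and PSME2 had none of their own and lay under BRG1 peaks named for their neighbours TAP1 and RNF31. The BRM peak named for PSMB9 was 310 bp wide, the narrowest width in its list, and met no BRG1 peak. It began 9256 bp before the RefSeq start of PSMB9 and overlapped the TAP1 span. ERAP1 and ERAP2, the peptidases that trim class I peptides, had BRG1 peaks of up to 1815 and 1972 bp. Among regulators, IRF1, an interferon-induced transcription factor, had 8 BRG1, 7 BRM and 5 SNF5 peaks, the widest of 3422 bp, and NLRC5, the class I counterpart of CIITA, had 5 BRG1 peaks and 1 BRM peak. Of the 9 heavy chain and related genes 7 had a BRG1 peak. HLA-G, known mainly from the placenta, had none in any list.

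In the class II list, none of the 9 alpha and beta chain genes was named by any peak or had one within 1 kb of its span. HLA-DOB, a chain of the peptide exchange regulator HLA-DO, was the one of 4 exchange genes with peaks, 3 BRG1 peaks of 338 to 371 bp. All 4 regulators had a BRG1 peak. RFXAP and RFXANK, subunits of the RFX complex that binds the X box of HLA promoters, had BRG1 peaks of 876 and 498 bp and BRM peaks of 550 and 337 bp, and RFX5, their DNA-binding partner, a BRG1 peak of 404 bp. IFI30, a lysosomal thiol reductase, had BRG1 and BRM peaks of 1236 and 971 bp, CD74, the invariant chain, an intronic BRG1 peak of 683 bp, and CTSS, a lysosomal protease, none.

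**Figure D3:**
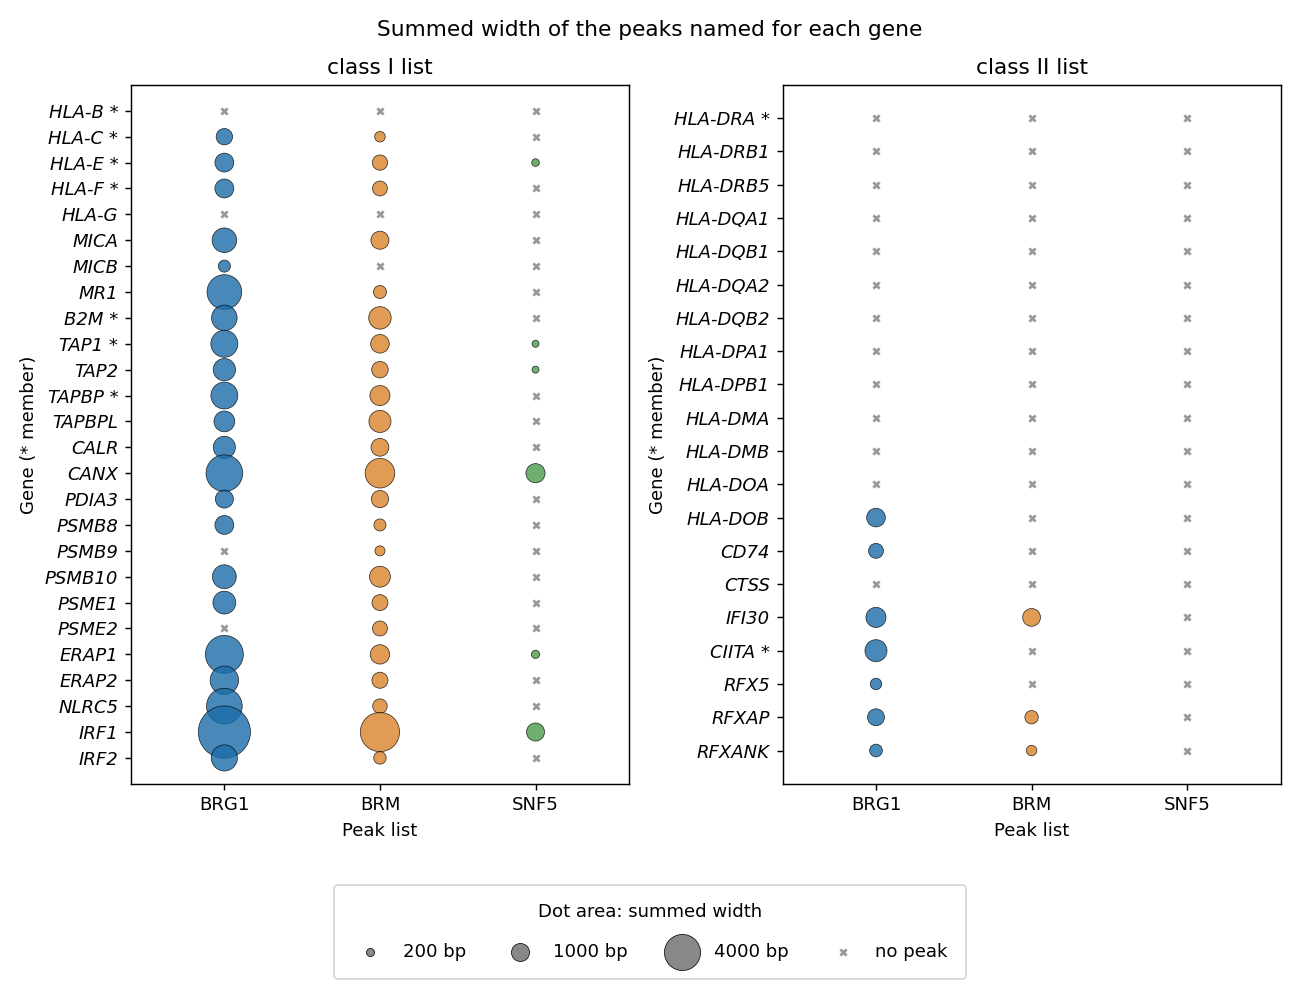
Dot area gives the summed width in bp of all peaks named for a gene in each list, for genes of the class I list (left) and the class II list (right), with members starred and crosses for no peak. Dots fill most of the class I rows for BRG1 and BRM, while the 9 alpha and beta chain rows at the top of the class II panel hold crosses alone.

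In the promoter windows the 2 classes differed in the letters they hold as well. An ISRE match was found in 8 of the 22 class I windows in the RefSeq table and in 0 of the 17 class II windows, against 3.66% of 27305 windows, 1 for each gene in the table. These windows outnumber the 20052 protein-coding genes, while all genes of the 2 lists are protein-coding. Shares over all windows may thus differ from those over protein-coding genes, which were not computed for windows. The 8 were B2M, HLA-F, TAP1, TAP2, TAPBP, PSMB10, PSME1 and PSME2. All 11 matches in these windows lay inside a BRG1 peak and 8 inside a BRM peak. Those outside a BRM peak were the pair of B2M and the match of HLA-F, which lies 156 to 147 bases before the start. By window, a match lay inside a BRG1 peak in 8 of 8 and inside a BRM peak in 6 of 8, against 25.0% and 14.4% of the 999 windows with a match over all genes. ATTGG was found in 11 of 22 class I and 14 of 17 class II windows, against 35.7%, so these letters were present in class II promoters where no peak was called. TGACG, the core of the X2 box of HLA promoters, was found in 7 of 22 and 6 of 17, against 25.0%. Unlike the ISRE matches, many of these matches lay outside peaks. Of 22 ATTGG matches in class I windows, 10 lay inside a BRG1 peak and 6 inside a BRM peak, and of 23 in class II windows 3 and 0. For TGACG these were 4 and 4 of 7 matches in class I and 2 and 0 of 6 in class II windows. BRG1 peaks touched 17 of 22 class I and 5 of 17 class II windows, against 42.3% of all. BRM peaks touched 16 of 22 and 2 of 17, against 32.8%, and SNF5 peaks 3 of 22 and 0 of 17, against 10.2%. A match is a description of letters and not a shown site, and a window without a match may hold a site with other letters.

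Most members lie in the major histocompatibility complex (MHC) on chromosome 6, where the class I and class II genes form separate segments. From the start of HLA-F to the end of MICB (29723434 to 31511124) there were 101 BRG1, 68 BRM and 15 SNF5 peaks, or 56.5, 38.0 and 8.39 per Mb. From the start of HLA-DRA to the end of HLA-DPB1 (32439887 to 33089696) there were 13, 9 and 6, or 20.0, 13.9 and 9.23 per Mb. The whole genome span held 17.6, 7.58 and 2.52 per Mb. Protein-coding genes were about as dense in both segments, at 27.4 and 27.7 per Mb, and BRG1 peaks were named for 34 of 49 (69.4%) in the class I segment and 5 of 18 (27.8%) in the class II segment, against 34 of 61 (55.7%) in the class III segment between them and 63.4% of all genes. Of the 18 genes, 13 are on the class II list and 4 on the class I list, so this share largely repeats the counts above. In the class III segment, with 65.7 genes per Mb, BRG1 had 60.3 peaks per Mb.

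The class II segment was not empty. Of its 13 BRG1 peaks, 3 were named for HLA-DOB, 1 each for TAP2, PSMB8 and TAP1, 1 for the pseudogene HLA-Z, 1 for the noncoding AL645941.1 and 5 for BRD2, which encodes a chromatin reader. None of its 9 BRM and 6 SNF5 peaks was named for a class II gene. TAP1 and its neighbours TAP2, PSMB8 and PSMB9 thus form an island of class I genes with peaks between HLA-DOB and HLA-DMB, whose own peaks were 3 narrow BRG1 peaks and none.

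**Figure D4:**
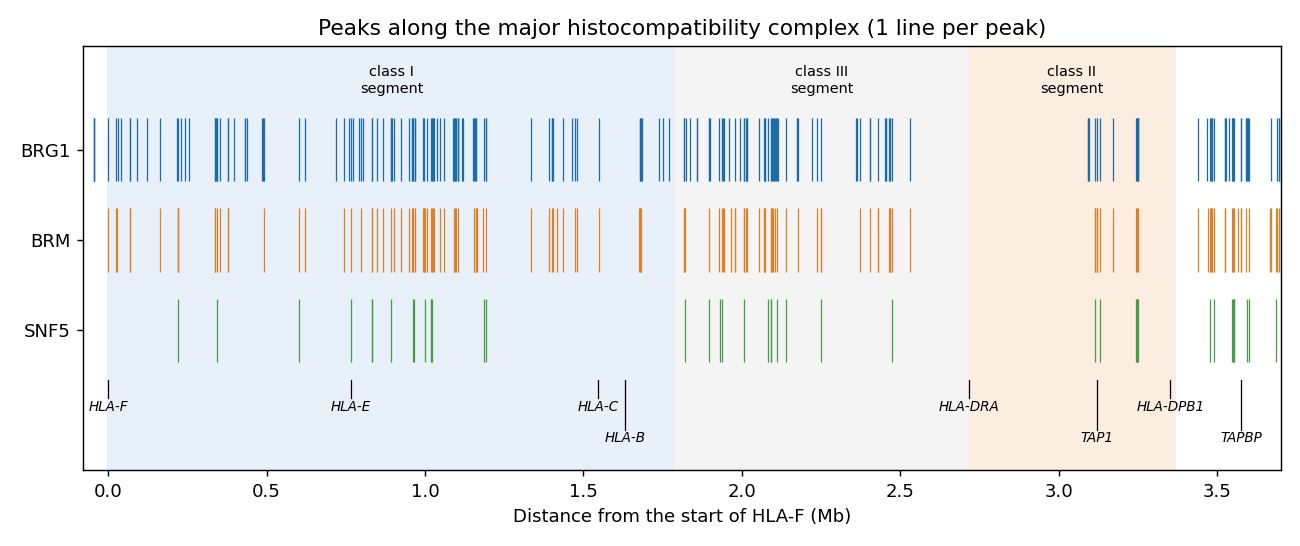
Each vertical line is the middle of 1 peak in the BRG1, BRM or SNF5 list, against the distance in Mb from the start of HLA-F, with the class I, class III and class II segments shaded and genes marked by their span start. The class I segment holds 56.5 BRG1 peaks per Mb and the class II segment 20.0, and the stretch of 560.5 kb around HLA-DRA has none.

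RWPE1 is epithelial, and the lists were checked against cell type markers, as peaks and not as expression. Of 8 genes of basal prostate epithelium BRG1 named 8, of which 7 had a peak annotated as promoter, BRM 7 and SNF5 5. Of 12 genes of blood and antigen-presenting cells BRG1 named 8, of which 2 had a peak annotated as promoter (CD14 and FLT3), BRM named CD14 alone and SNF5 none. The 8 of 12 (66.7%) lies near the 63.4% of all protein-coding genes, and promoter peaks of BRG1 were named for 55.5% of all. BRM named 49.5% and SNF5 19.6% of all protein-coding genes. With 8 and 12 genes, the marker counts were not tested against these shares. Whether the missing class II peaks go with low transcription of these genes was not tested, since no expression values were used here.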

How the data were processed

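RWPE1 chromatin was crosslinked with 0.3% formaldehyde (30 min) and 125 mM glycine was added afterwards, according to the labels' protocols. Of 24 samples in 12 groups of 2, only the subunit samples have peak lists used here. The submitters' processing notes name Bowtie2, SAMtools, MACS2, deepTools 2.5.2 and hg38, but not what each was for. The sources used here do not say whether replicates were pooled, which threshold was set or how peaks were filtered. The deposited columns give start, end, width, annotation and distance to the nearest TSS in bp, per the file headers, and the promoter label reaches 998 bp.

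Members were matched by the deposited gene name. For the background, names were matched to RefSeq symbols (GRCh38.p14), which placed 81.3% (BRG1), 86.9% (BRM) and 90.4% (SNF5) of peaks. Peaks met when they shared 1 bp, and counted in an MHC segment by their middle. Motifs were searched on both strands in 1 window a gene, at the outermost of the starts that the RefSeq promoter table holds for it, which for some genes (CANX, ERAP1, MICA and MICB among them) lies inside the RefSeq span; NF-kB, SP1 and GAS motifs were also searched and are not given. Promoters were aligned globally with Biopython 1.88. Overlap routines were tested on simulated data with scipy 1.17.1, pandas 2.3.3 and numpy 2.4.6 under Python 3.11.15. Figures were drawn with matplotlib 3.10.9. The members and lists were chosen with earlier results of these data known, and motifs and printed promoters after the peaks were seen. All members, genes named by peaks within 10 kb of them and genes of the wider lists could be named, and 1 gene counted in the class I list is not reported here by itself. Histone mark and input samples were not analysed here.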

Additional observations from a re-analysis of the deposited data

How the results depend on the processing

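Of 54 alternative values, 39 stayed within 1.5 times the reported count or within the interval of the reported share. Counts and shares have no sign, so a reversal of sign was not possible. Taking only peaks at least as wide as the median of their list lowered BRG1 to 4 of 20 class II genes (20.0%, against 49.6% of all genes). BRM fell to 15 of 27 class I genes (55.6%, against 34.2%). SNF5 fell to 0 of 7 class I members and 2 of 27 class I genes (7.41%), against 11.4%. Both SNF5 counts were thus below the all-gene share, where the reported 28.6% of members and 25.9% of class I genes stood above 19.6%. The same limit gave 32.4, 34.5 and 13.9 BRG1 peaks per Mb in the class I, III and II segments. For BRM the values were 17.9, 17.2 and 6.16, and for SNF5 2.80, 7.54 and 4.62. The whole genome span held 8.83 BRG1, 3.92 BRM and 1.32 SNF5 peaks per Mb at this limit. The narrower peaks of every list are left out by construction. With promoter peaks only, SNF5 named 1 class I member (14.3%, against 18.0% of all genes). With any peak within 1 kb of the gene span, BRM counted for 1 class II member, through the DEXI peak inside the CIITA span. A reciprocal overlap of 50% left 0% of class I BRG1 peaks on SNF5 peaks, since SNF5 peaks are narrow. No paired analysis was possible because 1 list stands for each subunit, which also leaves no replicate to leave out. The depth behind the lists is unknown, so a gene without a peak may be one below the limit of detection.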

Other observations

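Some HLA and MIC pseudogenes of the MHC, which were chosen after their values were seen, were named by peaks while HLA-B and HLA-G were not. Only pseudogenes with a peak are described, and no share of all such pseudogenes is given. HLA-V had BRG1 peaks of 934 and 1591 bp and BRM peaks of 331 and 356 bp, all annotated as promoter. HLA-H had a BRG1 promoter peak of 1157 bp, and MICE a BRG1 promoter peak of 590 bp with a BRM peak of 341 bp. HLA-Z, in the class II segment, had a distal BRG1 peak of 1374 bp and a BRM peak of 502 bp. MICD, MICF, MICG and HLA-W each had 1 distal BRG1 peak, of 1013, 461, 331 and 340 bp, and no BRM peak. No SNF5 peak was named for any of these pseudogenes. Since they resemble the functional genes, the same limit on the placing of reads holds.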
